A study of Homo sapiens with 12 samples.

Results

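Metallothioneins are small, cysteine-rich proteins that bind zinc and copper and also the toxic metals cadmium and mercury. Their genes lie side by side on chromosome 16, and in liver cells MT2A and the MT1 genes are known to be induced by metals, through the factor MTF1 at metal response elements, and by glucocorticoids and several kinds of stress. HSF1, the heat shock factor, is known for inducing chaperone genes, and H3K27ac, acetylation of lysine 27 of histone H3, marks active promoters and enhancers.

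The 7 genes described here are MT2A, MT1E, MT1F, MT1G, MT1M, MT1X and MT3, of 20033 protein-coding genes in GENCODE release 44 and of 16 metallothionein genes and pseudogenes of the cluster, 11 of them protein-coding. They were chosen by name, and a peak was taken as theirs by its position. Of the 12 samples of the series, 4 were used, all from Huh7, a human hepatocellular carcinoma line, with 1 library each. CUT&Tag, in which an antibody brings a transposase to a chromatin protein, was done for HSF1 and for H3K27ac in untreated wild-type cells. H3K27ac ChIP-seq was done 48 h after transfection with the control siRNA siNC or with siHSF1, which makes HSF1 knockdown cells, using Lipofectamine RNAiMAX in both. The labels do not say which HSF1 siRNA the ChIP-seq used, and HSF1 itself was not measured in these files. The RNA-seq samples were not analysed here, so no transcript level of any metallothionein gene is given.

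The lists held 7147 HSF1 and 1299 H3K27ac CUT&Tag peaks on hg38, and 41082 siNC and 45586 siHSF1 H3K27ac ChIP-seq peaks on hg19. They rested on 2712212, 896393, 9795121 and 10793650 tags after duplicate removal. The H3K27ac CUT&Tag library kept 5.70% of its 15737890 tags, whereas the others kept between 72.1% and 75.2%. The numbering of the peaks is unbroken in all 4 lists. Of 12 hepatocyte marker genes, 0 had an H3K27ac CUT&Tag peak within 1 kb of the start, as had 0 of 5 markers of other cell types, so this sparse list could not check the cell type. Among all protein-coding genes, 2.76% had such a peak.

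The HSF1 peak of the cluster lay between the member genes. It is shown first with the promoter sequences of MT2A and MT1X, since the peak and both promoters carry the same kind of element. The peak is at chr16:56643446-56643647 of hg38 and is printed on the plus strand. For MT2A and MT1X the 250 bases before the RefSeq start are printed, which lie on GRCh38.p14 at chr16:56608334-56608583 and chr16:56682220-56682469, plus strand. Capitals mark matches to the core of the metal response element, TGCACNC or TGCGCNC on either strand.
HSF1 peak: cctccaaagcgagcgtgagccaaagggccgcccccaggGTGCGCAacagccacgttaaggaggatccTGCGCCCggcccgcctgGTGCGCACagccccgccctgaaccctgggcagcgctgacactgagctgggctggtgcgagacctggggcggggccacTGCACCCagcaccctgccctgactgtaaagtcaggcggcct
MT2A promoter: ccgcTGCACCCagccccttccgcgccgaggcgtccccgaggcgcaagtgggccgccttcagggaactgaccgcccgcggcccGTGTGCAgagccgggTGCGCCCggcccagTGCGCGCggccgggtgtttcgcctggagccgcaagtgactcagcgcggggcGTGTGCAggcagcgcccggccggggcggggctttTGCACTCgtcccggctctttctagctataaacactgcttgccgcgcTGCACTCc
MT1X promoter: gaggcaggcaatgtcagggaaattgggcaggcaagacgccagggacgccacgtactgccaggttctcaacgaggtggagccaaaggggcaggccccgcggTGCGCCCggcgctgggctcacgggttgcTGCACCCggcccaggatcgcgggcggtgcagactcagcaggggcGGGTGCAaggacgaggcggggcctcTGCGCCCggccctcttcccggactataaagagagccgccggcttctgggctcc

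In the untreated cells, HSF1 CUT&Tag gave 1 peak in the whole cluster. It did not lie at a member gene. The peak overlapped the first exon of the lncRNA gene ENSG00000291095, and its summit at 56643526 was 84 bp before the start of that gene. The annotated start of MT1DP, a transcribed metallothionein pseudogene at 56643725 to 56644765, lay 199 bp after the summit. The next starts on chromosome 16 were those of the pseudogene MT1CP, 4722 bp away, and of MT1A, 4860 bp away.

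The summit was covered by a pileup of 12 tags, the number of tags extended to 200 bp that lie over it. The exact Poisson 95% interval of this count is 6.20 to 21.0 and covers counting error only. The fold enrichment was 7.30, where MACS adds 1 to the pileup and to the local background before dividing them, and the median of the whole list was 6.85. In fold enrichment 59.7% of HSF1 peaks were lower than this peak, in pileup 41.6% were lower, and 11.7% were shorter than its 202 bp. The peak was short, and its fold enrichment was near the median. It shared no base with an H3K27ac CUT&Tag peak. Around it the cluster was empty in this list, since the nearest HSF1 peaks were 192 kb before it and 288 kb after it, with pileups of 9 and 11 tags.

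**Figure D1:**
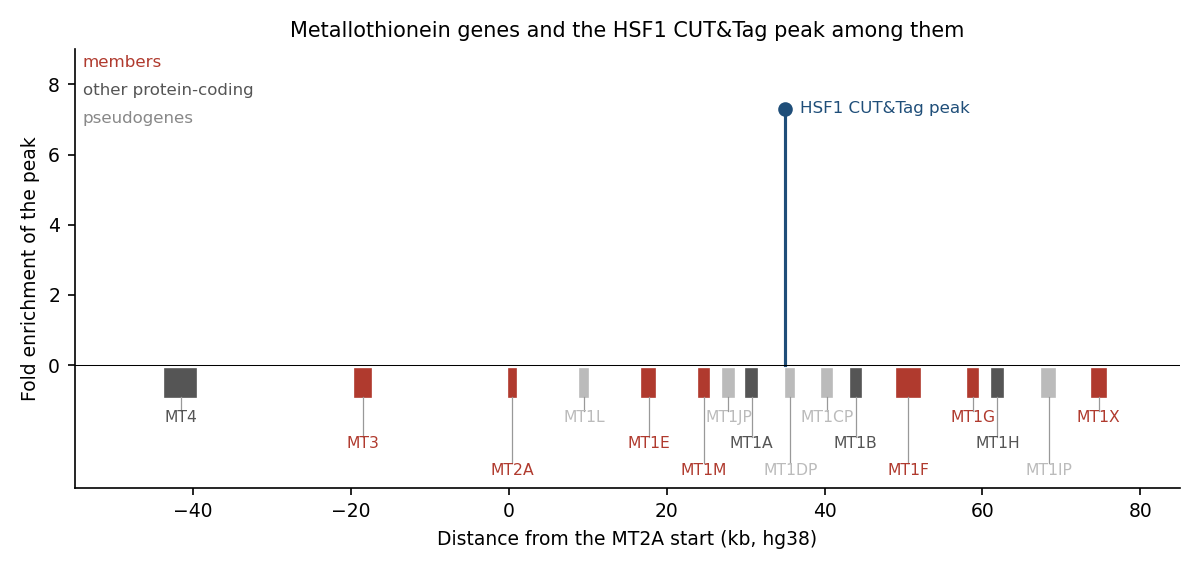
Metallothionein genes of chromosome 16 and the HSF1 CUT&Tag peak among them, by distance from the MT2A start in kb on hg38. Boxes are gene bodies, and the height of the line is the fold enrichment of the peak, 7.30, which stands beside the pseudogene MT1DP and between the members MT1M and MT1F.

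On hg38 the members ran along chromosome 16 from MT3 to MT1X, and all but MT1G are on the plus strand. MT3 (ENSG00000087250.9) spans 56589074 to 56591088 and has its start at -19.5 kb from that of MT2A. MT2A (ENSG00000125148.7) spans 56608584 to 56609497 and is the shortest member at 914 bp. MT1E (ENSG00000169715.15) spans 56625475 to 56627112, and MT1M (ENSG00000205364.4) spans 56632659 to 56633981. These 4 genes lie before the HSF1 peak. MT1F (ENSG00000198417.7), the longest member at 2968 bp, spans 56657731 to 56660698. MT1G (ENSG00000125144.14) spans 56666730 to 56668065, and MT1X (ENSG00000187193.9) spans 56682470 to 56684196, with its start 73.9 kb from that of MT2A. These 3 lie after the peak.

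All member distances to HSF1 refer to this 1 peak, so they are not independent of each other. MT1M, whose body ends 9.47 kb before the peak, was the nearest member. MT1F followed at 14.1 kb and MT1E at 16.3 kb, and these 3 of 7 members (42.9%) met the limit of 20 kb from the gene body. Of all protein-coding genes, 42.5% met it, so the share of members was near the background. Within 5 kb of the body the count was 0 of 7 members and 33.3% of all protein-coding genes, and within 50 kb it was 6 of 7 members and 54.6% of all. Just outside the limit lay MT1G at 23.1 kb, the member on the minus strand. MT2A, usually the most abundant human metallothionein, lay at 33.9 kb, MT1X at 38.8 kb and MT3, the brain-type metallothionein, at 52.4 kb. The median over the members was 23.1 kb, against 36.2 kb over all protein-coding genes. A peak inside a gene body counts as 0 kb away, and the members, of 914 to 2968 bp, were not matched to other genes for length. Measured from the starts, the medians were 24.4 kb over the members and 58.3 kb over all protein-coding genes.

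Within 1 kb of a start, 0 of 7 members had an HSF1 peak, compared with 21.9% of protein-coding genes. The nearest start was that of MT1M at 10.8 kb. With 7 neighbouring genes and 1 library this count gives no test, and it says that no peak passed the caller's cutoff there, not that HSF1 was absent. For H3K27ac CUT&Tag, 0 of 7 members had a peak within 20 kb of the body, where 7.41% of protein-coding genes had one. This is the library that kept 5.70% of its tags, and the part of its depth in the count was not tested. The nearest H3K27ac CUT&Tag peaks were 2.52 Mb before MT4, the first gene of the cluster, and 11.2 Mb after the end of MT1X, and the list held 47 peaks on the whole of chromosome 16.

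The metallothionein genes are close copies of each other, so the uniqueness of the sequence at their starts was measured. The file headers give tag sizes of 113 and 82 bases for the H3K27ac and HSF1 CUT&Tag libraries. Within 500 bp of the start of each of the 7 members, 0% of words of 100 bases occurred more than once on chromosomes 1 to 22, X and Y of hg38. The same held for the words inside the 202 bp of the HSF1 peak. Only exact copies were counted, so a copy with a changed base counted as unique. With words of 50 bases the share reached 5.78% at MT3 and 4.73% at MT1M, was 0.315% at MT1G, and was 0% at MT2A, MT1E, MT1F and MT1X. The most frequent of these words occurred 1273 times on these chromosomes for MT3 and 2 times for MT1M. Where the copies lie was not examined, so the shares do not measure copying among metallothionein genes. With words of 36 bases MT1M had the highest share, 11.2%. Short sequence is thus shared at some member starts, and its part in the lack of peaks there was not tested.

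Both members with a promoter sequence held several metal response element matches. Over the full RefSeq promoters, from 250 bases before the start to 50 after it, MT2A held 8 matches, 7 of them in the bases printed, and MT1X held 4. Of 35116 RefSeq promoters, 29.6% held at least 1 match, 8.6% at least 2, 211 (0.601%) held 4 or more, and 7 (0.0199%) held 8 or more. Of the other cluster genes in the table, MT1H held 8 and MT1B and MT4 held 3 each. MT1E, MT1F, MT1G, MT1M and MT3 had no entry in the table. The HSF1 peak held 5 matches within 100 bp of its summit, 2 of them overlapping each other on opposite strands. Among all HSF1 peaks 25.6% held at least 1 match, the median was 0, and 9 peaks (0.126%) held 5 or more. Overlapping matches were counted separately in all peaks and promoters. The share of G and C bases was 70.3% in this HSF1 peak, 72.0% in the MT2A promoter and 67.0% in the MT1X promoter. The cores are rich in G and C, and the lists compared were not matched for this share, so its part in the counts was not tested.

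**Figure D2:**
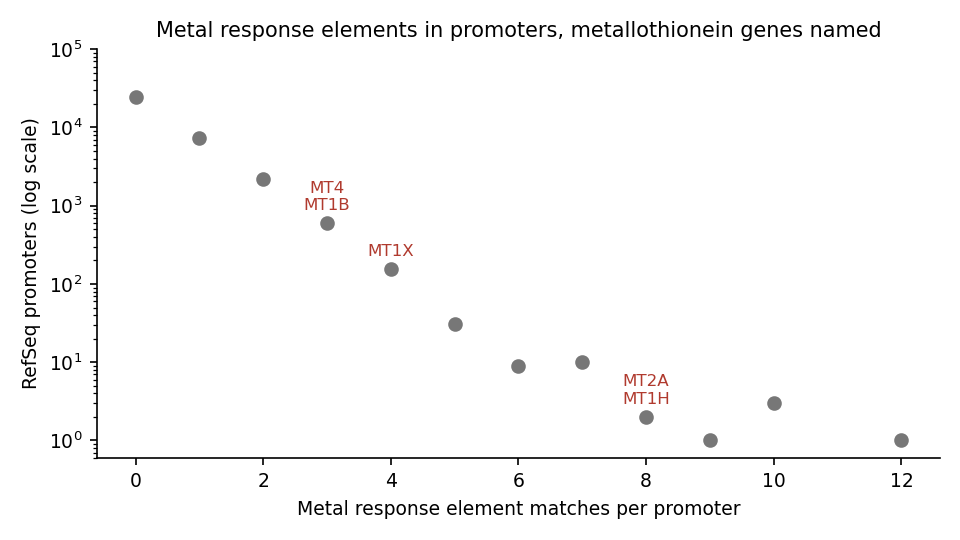
Number of RefSeq promoters (log scale) with each number of metal response element matches from 250 bases before to 50 after the start. The metallothionein genes with an entry are named above their number, with MT2A and MT1H at 8, MT1X at 4 and MT1B and MT4 at 3.

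The heat shock element, searched on both strands as 3 blocks of alternating GAA and TTC with any 2 bases between blocks, was found 0 times in the promoters of MT2A and MT1X and 0 times in the HSF1 peak. It was rare in general, at 0.49% of RefSeq promoters and within 100 bp of 14 of 7147 HSF1 summits (0.196%). CCAAT, on either strand, was found at the MT1X promoter and at neither the MT2A promoter nor the HSF1 peak. It was present in 34.6% of RefSeq promoters and within 100 bp of 30.7% of HSF1 summits. The promoter window is longer than the summit window, so the shares of promoters and summits are not directly comparable. A match is a run of letters in these windows and no measure of binding.

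The H3K27ac ChIP-seq lists asked how acetylation of the cluster compared between control and HSF1 knockdown cells. They are on hg19, and members were placed there from 2 given starts, of MT2A near 56642478 and of MT1X near 56716382, since no hg19 annotation was used here. In the interval chr16:56590000-56725000, set to take in the cluster, the siNC list held 0 peaks and the siHSF1 list held 1. Among windows of this length along the chromosomes, 40.3% held an siNC peak and 38.1% an siHSF1 peak, so most intervals of this length held no peak. The windows include centromeres and were not matched to the cluster for gene content, so these shares cannot say whether an empty interval is usual for one so rich in genes. There was no region with a peak of both lists, and no change in height could be computed at the cluster.

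The siHSF1 peak lay at chr16:56640578-56640753, and it ended 1.73 kb before the given start of MT2A. It was 176 bp long, where the shortest peak of that list had the fragment length of 175 bp. Its summit was covered by a pileup of 7 tags (exact Poisson 95% interval 2.81 to 14.4), its fold enrichment was 4.71, and its -log10 q-value was 3.59. Of the siHSF1 peaks, 7.89% had a lower pileup, and 73.0% had a fold enrichment at least as high. In pileup it was thus among the lower peaks of its list. The local background at the peak was the lowest in the list, a floor shared by 19156 of the 45586 siHSF1 peaks.

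**Figure D3:**
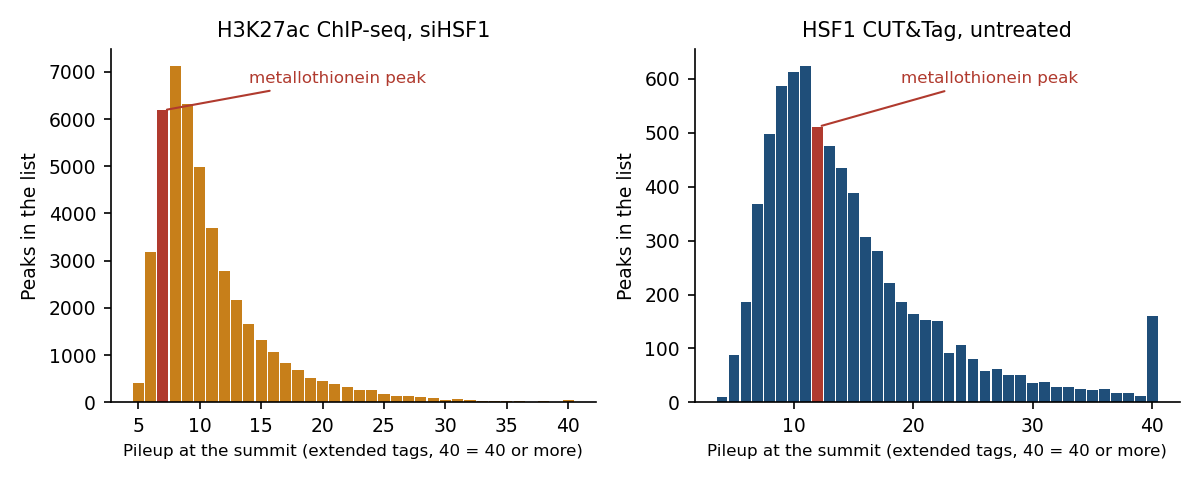
Number of peaks by pileup at the summit (extended tags, with 40 standing for 40 or more) in the siHSF1 H3K27ac ChIP-seq list and the HSF1 CUT&Tag list. The red bars hold the peaks of the metallothionein cluster, at 7 tags in the ChIP-seq list and 12 tags in the CUT&Tag list.

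Whether the peak near MT2A differed from siNC could not be settled at this depth. Of the siHSF1 peaks with the same pileup of 7 tags, 46.6% shared no base with an siNC peak, compared with 25.4% of all siHSF1 peaks. Where the siNC background was lowest, the weakest siNC peaks had a pileup of 6 tags. Scaled to the tag number and the longer 297 bp fragments of the siNC library, the siHSF1 pileup would be 10.8. This assumes tags spread evenly over the site, which was not tested. The scaled interval of 4.33 to 22.2 covers counting error in siHSF1 only. It reaches below 6 tags, but whether a site of this strength would have been called in siNC was not tested.

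The cluster also stood in a long stretch with few peaks. In the siNC list no peak lay between 54215760 and 56832102, a gap of 2.62 Mb, and 84 of the 41058 gaps between neighbouring peaks were at least as long, centromeres included. The median gap was 2036 bp. The siHSF1 list held 5 peaks in that gap, all with pileups between 6 and 9 tags. The 2 gaps that the peak near MT2A leaves in the siHSF1 list were 155 kb and 193 kb, and the median gap was 807 bp.

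**Figure D4:**
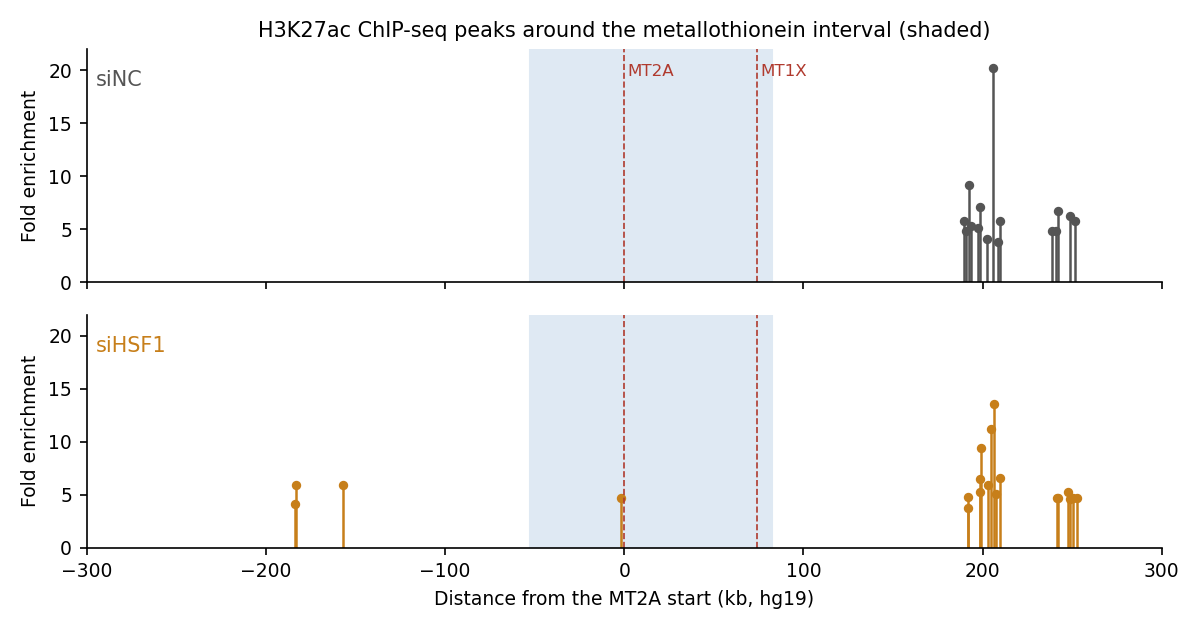
Fold enrichment of H3K27ac ChIP-seq peaks in siNC (top) and siHSF1 cells (bottom) by distance from the given MT2A start in kb on hg19. The shaded interval holds 0 siNC peaks and 1 siHSF1 peak, and both lists have a block of peaks more than 100 kb beyond MT1X.

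The nearest acetylated block present in both conditions began 116 kb after the given MT1X start and ran for 20.6 kb, from 56832102 to 56852661. It held 10 peaks in each list. Its highest peak reached 20.2-fold enrichment with 41 tags in siNC and 13.5-fold with 22 tags in siHSF1. The difference cannot be read as a change, since both libraries also differ in fragment length and there is 1 of each. Of all peaks, 99.7% were lower than it in fold enrichment in siNC and 97.9% in siHSF1. Strong H3K27ac was thus called in this part of the chromosome in both libraries, outside the cluster. With neighbouring peaks merged across gaps of up to 12.5 kb, as is done to define super-enhancers, the peak near MT2A formed a region of its own, ranked 12845 of 13377 in siHSF1, and 0 of 14420 siNC regions lay in the interval.

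Some other genes of metal handling had an HSF1 peak near their start. Of 37 such genes, 13 (35.1%) had an HSF1 CUT&Tag peak within 1 kb of the start, beside the 21.9% of all protein-coding genes. Copper handling genes accounted for 5 of 7, zinc importers for 5 of 14, zinc exporters for 3 of 10 and iron handling genes for 0 of 5. These shares also count a peak whose summit lies nearer to the start of another protein-coding gene. Of the 13 genes, 8 had the protein-coding start nearest to the summit, and ATOX1 and CCS of the copper genes did not. That count was not made for all protein-coding genes, so no excess at metal handling genes can be read from it. MTF1, the factor that binds metal response elements, had none.

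ATP7B, the copper transporter that moves copper into bile and is mutated in Wilson disease, had an HSF1 peak of 9.18-fold enrichment and 17 tags. COX17, the copper chaperone for cytochrome oxidase, had 7.65-fold enrichment and 12 tags. SLC31A1, the main copper importer, had 6.99-fold and 12 tags. For these 3 genes the summit lay within 112 bp of the start. SLC30A1, the zinc exporter of the plasma membrane, had 6.36-fold and 14 tags.

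Among the zinc importers, SLC39A13 had 7.39-fold enrichment and 20 tags, with its peak 0.942 kb from the start, and SLC39A8 had 6.56-fold and 7 tags. The zinc exporters SLC30A5 and SLC30A6, which are known to work as a pair in the secretory pathway, had 6.98-fold and 11 tags and 5.49-fold and 8 tags. The zinc importers SLC39A1, SLC39A3 and SLC39A6 had between 6.19-fold and 6.58-fold, and for each the summit lay nearer to the start of another protein-coding gene. An H3K27ac CUT&Tag peak lay within 1 kb of the start for 2 of 37 genes (5.41%), SLC30A6 and SLC31A1, and for 2.76% of all protein-coding genes.

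ATOX1, another copper chaperone, had the highest fold enrichment of these 13 genes, 12.96, but its summit lay nearer to the start of G3BP1, at 683 bp, than to its own, at 804 bp. CCS, the copper chaperone for superoxide dismutase, shared its peak with CCDC87, whose start was 32 bp from the summit. For 8 of the 13 genes their own start was the protein-coding start nearest to the summit. The fold enrichments ran from 5.49 to 12.96 with a median of 6.98, and the metallothionein peak at MT1DP, at 7.30, fell within this range.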

How the data were processed

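The authors made 4 peak lists with MACS, version 2.1.1.20160309 for ChIP-seq and 2.1.4 for CUT&Tag, calling each library by itself after duplicate removal. For ChIP-seq they used the matching input and a q-value limit of 0.05, and for CUT&Tag no control and a p-value limit of 1e-05. The pileup the authors deposited is a signal in tags, unscaled. Fold enrichment, as deposited, is a ratio to the local background. The -log10 q-value and the -log10 p-value were also deposited as MACS wrote them. The CUT&Tag headers say that q-values are not calculated, yet the column holds values, used as a filter in an alternative. For ChIP-seq, BWA and hg19 stand in the headers, but Bowtie2 and hg38 in the methods.

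Unplaced contigs were left out. Positions on hg19 and hg38 were not converted or set side by side. Gene starts are the outermost GENCODE release 44 starts, and promoters come from RefSeq (GRCh38.p14), where 2 of 7 members matched. Windows of the interval's length were laid end to end from the first to the last ChIP-seq peak of each chromosome. With 1 library per condition no test was possible. The genes and lists were chosen with earlier results of these data known. All 7 members were named, and other genes of the cluster, of its surroundings or of metal handling where a CUT&Tag peak lay within 1 kb of the start. G3BP1, CCDC87, MT1A, MT1B, MT1CP, MT1H, MT4 and MTF1 were named after the values were seen. The planned height change and the siNC rank had no peaks to use. The calculations were tested on simulated data, with 6 of 6 planted answers recovered. The tools were matplotlib 3.10.9, pysam 0.24.0, numba 0.67.0, pandas 2.3.3, numpy 2.4.6 and scipy 1.17.1 under Python 3.11.15.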

Additional observations from a re-analysis of the deposited data

How the results depend on the processing

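The results rest on 1 library per condition and on lists of called peaks, so weaker signal at the cluster was not seen. Over 10 results and 27 alternatives, 19 values stayed within 1.5 times and 8 moved. Where the main count was 0, as for siNC peaks and H3K27ac CUT&Tag, stricter cutoffs and narrower windows could only give 0 again. Those values are part of the 19 and say nothing about stability. The single siHSF1 peak did not pass stricter cutoffs: with a -log10 q of at least 5, or with a fold enrichment of at least 5, the interval held 0 siHSF1 peaks. The covered length of 176 bp became 0 bp with the former cutoff and 1 bp after the fragment length was subtracted. The number of members with an HSF1 peak followed the window, with 3 at 20 kb from the body, 0 at 5 kb, 6 at 50 kb and 0 at 1 kb from the start, where 42.5%, 33.3%, 54.6% and 21.9% of all protein-coding genes had one. The median share of repeated words at member starts was 1.76% with words of 36 bases and 0% with longer ones. Extending the interval by 20 kb, an alternative added after the data were seen, changed neither count of ChIP-seq peaks. The alternatives for the height change were not run because no region held a peak of both lists, and the rank had no value with a -log10 q of at least 5. No paired analysis was possible because each condition had 1 library and no result comes from a test.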
